A study of Mus musculus with 29 samples.

Results

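Delta protocadherins (Pcdh7, Pcdh8, Pcdh9, Pcdh10, Pcdh17, Pcdh18 and Pcdh19) and type II cadherins (Cdh6, Cdh8 and Cdh11) were followed in the brain of mouse embryos of stage E11.5. The 10 genes were chosen by family and symbol, with earlier results of these data known. Counts and medians of the 10 set beside those of all genes are therefore description only. All 10 were found among the 25239 genes of the count tables and among the 15383 genes with enough counts to test. Poly(A) RNA was sequenced from 4 groups. Each group had 2 libraries, and each library came from tissue pooled over several samples of one genotype. They were forebrain of wild-type embryos, forebrain of embryos carrying the hs267-853 knockout, midbrain of wild-type embryos, and midbrain of embryos carrying the hs654 knockout. The hs numbers name enhancer elements of the VISTA collection. It was not established whether the double number of hs267-853 stands for 1 deletion or 2, and sex, strain and litter of the pooled embryos are not given in the sources used here. The pools are the replicates, so p-values rest on the spread between pools. That spread was estimated for each gene over the 4 groups together and drawn toward that of other genes. It is therefore not the spread of any single group.

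Cadherins are calcium-dependent adhesion proteins of the cell surface, with a row of extracellular cadherin repeats, a membrane-spanning segment and a cytoplasmic tail. Type II cadherins bind like with like through exchanged strands of their outermost repeat, and their tails bind catenins, which link them to actin. Delta protocadherins bind through an antiparallel overlap of several repeats, lack the catenin-binding tail, and in part recruit the WAVE complex, which promotes branched actin, through Nap1 (Nckap1). In the embryonic brain both families are known for expression in patches that follow regional and compartment boundaries, and for roles in the sorting of cells and axons.

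Of the 10 genes, 8 differed between wild-type forebrain and wild-type midbrain, in both directions, and 0 passed the threshold between knockout and wild type in either tissue. Over all genes tested, 0% passed for the hs654 knockout and 0.013% for the hs267-853 knockout, so the 0 does not set the 10 genes apart. Pcdh19 was 6.59-fold higher in wild-type forebrain than in wild-type midbrain, and Pcdh8 was 7.67-fold higher in wild-type midbrain than in wild-type forebrain. Cdh6, Pcdh10 and Cdh11 were also higher in wild-type forebrain, and Cdh8, Pcdh9 and Pcdh18 in wild-type midbrain. At an adjusted p under 0.05 (edgeR quasi-likelihood test, Benjamini-Hochberg adjustment over all genes tested), 8 of 10 members differed, 4 in each direction. Over all genes tested 29.6% differed, 14.3% higher and 15.3% lower in forebrain. The median size of the log2 difference, regardless of sign, was 0.64 for the members and 0.23 for all genes tested.

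Total counts over genes ran from 9051632 to 18024406 per library, and replicates of a group differed by more than counting noise, with a chi-square of 3.75 to 7.74 per degree of freedom. Of 10 forebrain regional markers 9 were tested, and all 9 were higher in wild-type forebrain. Of 10 midbrain and isthmus markers 7 were higher in wild-type midbrain, while Fgf17 and Sp8 were higher in forebrain and Fgf8 did not pass. En2 had 0 counts in the 4 forebrain libraries and 130 to 158 CPM in the 4 midbrain libraries. Levels are in CPM, counts scaled to one common library size with TMM factors. They are not divided by transcript length, so levels are compared within a gene and not between genes. In tissue RNA, fewer cells of a type and less RNA per cell cannot be told apart.

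**Figure D1:**
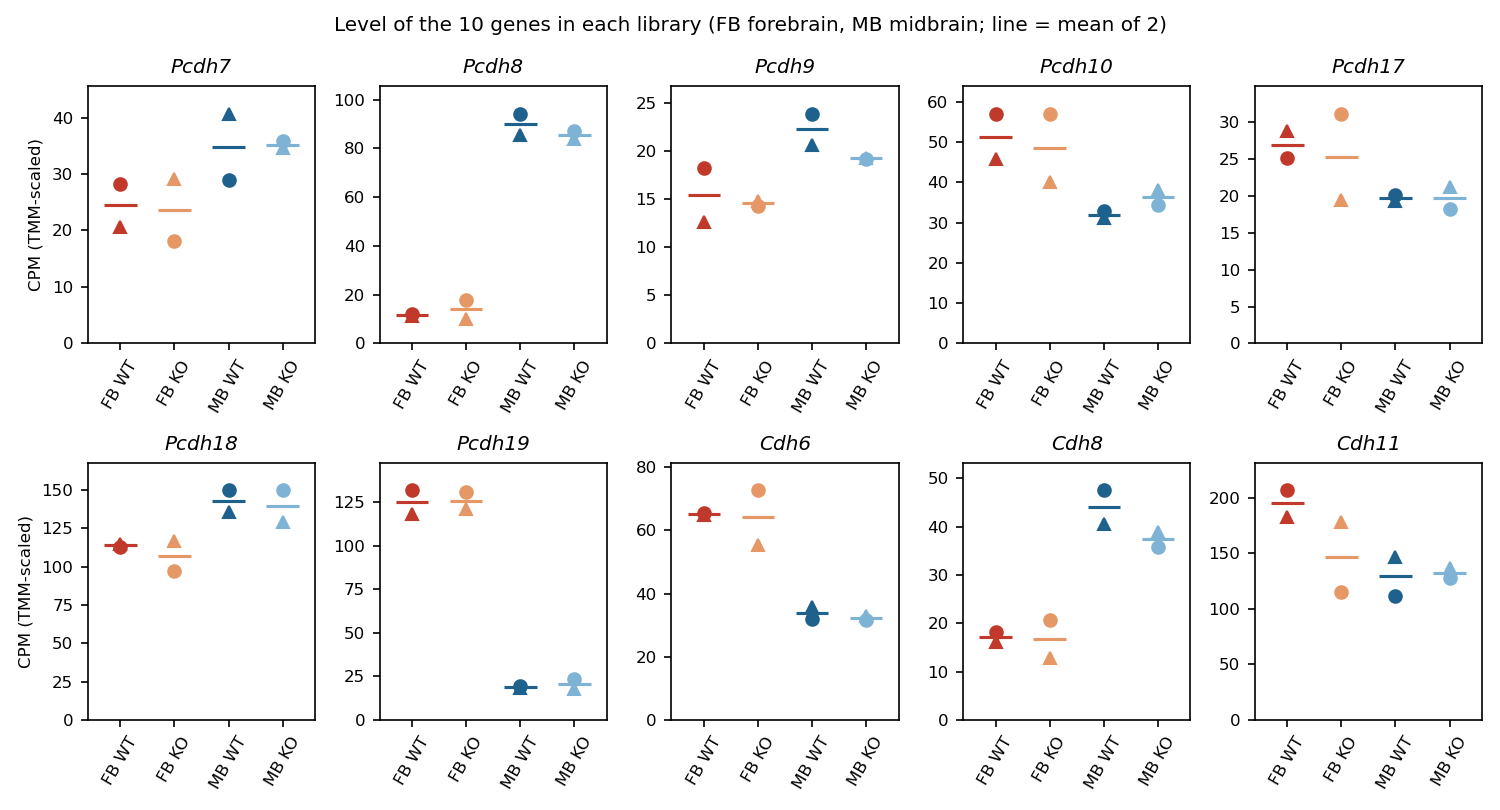
Level of each of the 10 genes in CPM (vertical axis, from 0, scaled to each gene) in the 8 libraries, by group; circles are replicate 1, triangles replicate 2, and lines are means of the 2 pools. Pcdh19 lies at 118 to 132 CPM in forebrain and 17.7 to 23.6 CPM in midbrain, and Pcdh8 shows the opposite order, at 10.2 to 17.9 and 83.9 to 94.3 CPM.

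Among the delta-2 protocadherins, Pcdh19 and Pcdh8 lay furthest apart between the tissues. Pcdh19, an X-linked gene that acts with N-cadherin in adhesion and is mutated in a human epilepsy, measured 132 and 118 CPM in the wild-type forebrain pools and 131 and 121 CPM in the hs267-853 knockout forebrain pools. It measured 19.7 and 18.1 CPM in wild-type midbrain and 23.6 and 17.7 CPM in hs654 knockout midbrain. Every forebrain library lay above every midbrain library. The pools of a group lay close together except in hs654 knockout midbrain, where the log2 gap was 0.41. The wild-type log2 difference, forebrain minus midbrain, was 2.72 (SE 0.11, edgeR adjusted p 2.13e-09).

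Pcdh8, known as paraxial protocadherin and as arcadlin, takes part in cell movement in the early embryo and in the removal of N-cadherin from synapses. It measured 12.2 and 11.2 CPM in wild-type forebrain and 17.9 and 10.2 CPM in knockout forebrain, against 94.3 and 85.7 CPM in wild-type midbrain and 87.2 and 83.9 CPM in knockout midbrain. All midbrain pools were high and all forebrain pools low, and the highest forebrain value came from replicate 1 of the hs267-853 knockout. The wild-type log2 difference was -2.94 (SE 0.18, edgeR adjusted p 6.37e-08). Gm9748, a long non-coding RNA gene that overlaps Pcdh8 in the RefSeq table, ran from 1.22 to 12.2 CPM over the libraries, and its mean was 13.1% of that of Pcdh8. Its own wild-type log2 difference was -2.80 (edgeR adjusted p 6.75e-06), the same direction. Whether counting used the read strand is not given in the sources used here, so reads in shared sequence cannot be assigned to either gene with certainty.

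Pcdh10 (OL-protocadherin), which binds the WAVE complex and is known for a role in the growth of striatal axons, measured 56.9 and 45.7 CPM in wild-type forebrain and 57.1 and 40.0 CPM in knockout forebrain. In midbrain it measured 32.8 and 31.2 CPM without the deletion and 34.5 and 38.1 CPM with it. The forebrain pools were the higher ones throughout, though the lowest of them came near the highest midbrain pool. The wild-type log2 difference was 0.68 (SE 0.15, edgeR adjusted p 0.00458), and without wild-type forebrain replicate 1 it was 0.51 with an adjusted p of 0.0653.

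The bases before the annotated starts of these genes are shown because Pcdh8 and Pcdh19 differed most between the tissues, in opposite directions. Pcdh10, which binds the WAVE complex, was a further member that was higher in forebrain. They come from RefSeq (GRCm38.p6, the assembly that mm10 names) and are cut to lie outside the annotated gene. The window of Pcdh8 lies within Gm9748. That of Pcdh10 reaches into 2610316D01Rik, a tested gene that lies 0.138 kb from Pcdh10. The sequences read 5′ to 3′ on the gene's strand, and end next to the gene. Pcdh8 is at chr14:79771313-79771562 on the minus strand, Pcdh19 at chrX:133689045-133689243 on the minus strand and Pcdh10 at chr3:45378148-45378397 on the plus strand. Capitals mark TATAAA in Pcdh8 and the reverse complement of GGGCGG in Pcdh19 and Pcdh10.
Pcdh8: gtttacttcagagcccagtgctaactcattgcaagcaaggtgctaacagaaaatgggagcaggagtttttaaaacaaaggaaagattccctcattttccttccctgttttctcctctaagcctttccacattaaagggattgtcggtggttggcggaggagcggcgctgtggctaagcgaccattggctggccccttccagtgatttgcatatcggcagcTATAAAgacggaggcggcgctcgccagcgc
Pcdh19: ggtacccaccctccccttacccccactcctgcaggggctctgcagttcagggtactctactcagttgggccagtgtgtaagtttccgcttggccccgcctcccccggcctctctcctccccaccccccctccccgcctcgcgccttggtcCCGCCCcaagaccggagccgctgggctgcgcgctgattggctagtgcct
Pcdh10: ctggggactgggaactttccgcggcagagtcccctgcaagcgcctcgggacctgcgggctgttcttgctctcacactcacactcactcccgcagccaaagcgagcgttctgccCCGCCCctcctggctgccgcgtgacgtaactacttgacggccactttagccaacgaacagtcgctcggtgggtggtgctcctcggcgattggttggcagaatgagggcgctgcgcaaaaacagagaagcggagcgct

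A start-site window was found for 9 of the 10 members, and 5 strings were searched on both strands of the 250 bases before the start. Unlike the printed sequences, these windows were not cut at the annotated gene. For Pcdh7, Pcdh9, Cdh6 and Cdh8 the start and its window lie wholly inside the annotated gene. The windows of Pcdh18 and Pcdh19 lie partly inside it. TATAAA, the string of a TATA box, was found 30 bases before the start of Pcdh8 and before no other member, while 12.4% of 32851 windows of the same length in the table held it. GGGCGG, the core of a GC box, was found before Pcdh10, Pcdh17, Pcdh18, Pcdh19, Cdh6 and Cdh8, and in 32.7% of all windows. TAATTA (homeodomain core, 4.84% of all windows), TAATCC (Otx-type homeodomain, 6.25%) and CAGCTG (an E-box, 13% of all windows) were found before none of the 9 members. Windows of Pcdh18 and Pcdh19 were rich in G and C, at 68% and 69.2%, and those of Pcdh8 and Cdh6 were both at 51.2%, beside a median of 52.4% over all windows. These are matches of letters, which describe the windows only.

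Pcdh17 and Pcdh18 complete the delta-2 members. Pcdh17, which acts in the assembly of synapses and in the extension of axons, measured 25.2 and 28.8 CPM in wild-type forebrain, 31.2 and 19.5 CPM in knockout forebrain, 20.2 and 19.3 CPM in wild-type midbrain and 18.3 and 21.3 CPM in knockout midbrain. The wild-type groups did not overlap, but the knockout groups did, and the wild-type log2 difference of 0.44 (95% interval 0.05 to 0.84, edgeR adjusted p 0.0868) did not pass. When the fit held only the 4 wild-type libraries its adjusted p was 0.0169, and without a filter on low counts it was 0.00594.

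Pcdh18, whose cytoplasmic tail binds the adaptor Dab1, measured 113 and 115 CPM in wild-type forebrain and 97.1 and 117 CPM in knockout forebrain. It measured 150 and 136 CPM in wild-type midbrain and 150 and 129 CPM in knockout midbrain. All midbrain pools lay above all forebrain pools, by a small step: the wild-type log2 difference was -0.33 (SE 0.094, edgeR adjusted p 0.0186). The call was lost without wild-type forebrain replicate 1 (adjusted p 0.0986), wild-type forebrain replicate 2 (0.0790) or wild-type midbrain replicate 1 (0.145), with log2 differences of -0.31, -0.34 and -0.26.

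The delta-1 protocadherins Pcdh7 and Pcdh9, which carry a conserved cytoplasmic motif that binds protein phosphatase 1, were both lower in the wild-type forebrain pools than in the midbrain pools. Pcdh9 measured 18.2 and 12.6 CPM in wild-type forebrain, 14.3 and 14.8 CPM in knockout forebrain, 23.9 and 20.6 CPM in wild-type midbrain, and 19.2 and 19.3 CPM in knockout midbrain. Its wild-type log2 difference was -0.53 (SE 0.16, edgeR adjusted p 0.0251). This call rested on single libraries. Without wild-type forebrain replicate 2 the value was -0.29 (adjusted p 0.229), and without wild-type midbrain replicate 1 it was -0.42 (adjusted p 0.179).

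Pcdh7 (NF-protocadherin), known for roles in axon growth and in the ectoderm, measured 28.3 and 20.7 CPM in wild-type forebrain, 18.1 and 29.2 CPM in knockout forebrain, 29.0 and 40.7 CPM in wild-type midbrain, and 35.8 and 34.6 CPM in knockout midbrain. The pools of a group lay as far apart as the tissues did in places, and the 4 forebrain and 4 midbrain libraries overlapped. The wild-type log2 difference was -0.50 (95% interval -0.96 to -0.04, edgeR adjusted p 0.0986). It passed without wild-type midbrain replicate 1, at -0.73 and an adjusted p of 0.0464, in a fit of only the 4 wild-type libraries (0.0461) and without a filter on low counts (0.000665).

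Among the type II cadherins, Cdh6 and Cdh8 moved in opposite directions. Cdh6, known for marking compartments in the embryonic forebrain, measured 65.4 and 64.9 CPM in wild-type forebrain and 72.8 and 55.5 CPM in knockout forebrain, against 32.1 and 35.9 CPM in wild-type midbrain and 31.7 and 32.9 CPM in knockout midbrain. All forebrain pools were higher, and the wild-type log2 difference was 0.94 (SE 0.12, edgeR adjusted p 5.96e-05). Cdh8, which is expressed in restricted territories of the developing brain, measured 18.2 and 16.2 CPM in wild-type forebrain, 20.7 and 12.8 CPM in knockout forebrain, 47.6 and 40.5 CPM in wild-type midbrain, and 35.9 and 38.9 CPM in knockout midbrain. All midbrain pools were higher, with a wild-type log2 difference of -1.36 (SE 0.18, edgeR adjusted p 7.98e-05).

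Cdh11 (OB-cadherin), best known from mesenchyme and bone, measured 207 and 183 CPM in wild-type forebrain, 115 and 178 CPM in knockout forebrain, 112 and 147 CPM in wild-type midbrain, and 128 and 137 CPM in knockout midbrain. The wild-type forebrain pools were the highest, and replicate 1 of the hs267-853 knockout lay within the midbrain range. The wild-type log2 difference was 0.59 (SE 0.16, edgeR adjusted p 0.0146). It was not past the threshold in DESeq2 (adjusted p 0.0998), without wild-type forebrain replicate 1 (0.50, adjusted p 0.109) or without wild-type midbrain replicate 1 (0.40, adjusted p 0.159).

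Read over all 8 libraries, the 4 forebrain libraries lay entirely on one side of the 4 midbrain libraries for 7 of 10 members, against 40.9% of all genes tested. Pcdh7, Pcdh17 and Cdh11 were the exceptions. Between the wild-type groups alone 10 of 10 members did not overlap, against 65.9% of all genes tested. Pcdh8, Pcdh19, Cdh6 and Cdh8 passed the threshold under each of the 10 alternatives tried for the wild-type comparison. Over these alternatives Pcdh8 ranged from -3.00 to -2.87 on the log2 scale, Pcdh19 from 2.64 to 2.80, Cdh6 from 0.86 to 1.02 and Cdh8 from -1.47 to -1.24.

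The tissues can be compared once more in the 4 knockout libraries, which share no library with the wild-type comparison. There the deletions differ together with the tissue. The sign matched the wild-type one for 10 of 10 members, and 5 of 10 passed: Pcdh8, Pcdh18, Pcdh19, Cdh6 and Cdh8. Over all genes tested 29.4% passed, 14.6% higher and 14.8% lower in forebrain, and 8 of 10 members did not overlap, against 64.4% of all genes tested. The log2 difference of Pcdh8 was -2.59 (SE 0.17), of Pcdh19 2.60 (SE 0.11), of Cdh6 0.99 (SE 0.12) and of Cdh8 -1.15 (SE 0.18).

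Pcdh9, Pcdh10 and Cdh11, which passed between the wild-type groups, did not pass between the knockout groups. Their log2 differences there were -0.40 (95% interval -0.76 to -0.05, edgeR adjusted p 0.0853), 0.43 (0.09 to 0.76, adjusted p 0.0547) and 0.15 (-0.21 to 0.50, adjusted p 0.542). The count of members depended on replicate 2 of the hs267-853 knockout: without it 8 of 10 passed, Pcdh7, Pcdh10 and Pcdh17 among them, beside 26.4% of all genes tested in that fit. Without a filter on low counts 9 of 10 passed, beside 24.6% of the genes tested then. Without hs654 knockout replicate 1 Pcdh18 did not (-0.29, adjusted p 0.117). Without hs267-853 knockout replicate 1 Cdh11 passed (0.43, adjusted p 0.00988), and the value of Pcdh17 was -0.01.

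**Figure D2:**
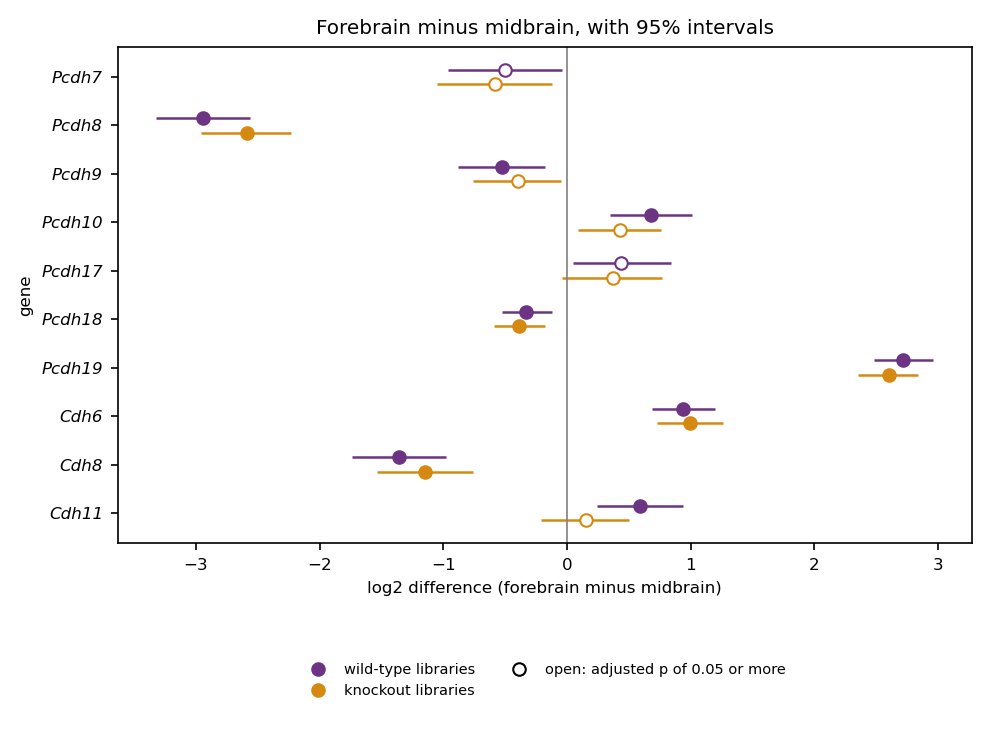
Log2 difference, forebrain minus midbrain, of each gene (horizontal axis) in the wild-type libraries and in the knockout libraries, with 95% intervals from edgeR; filled points passed an adjusted p of 0.05. Both comparisons place Pcdh19 furthest to the right, at 2.72 and 2.60, and Pcdh8 furthest to the left, at -2.94 and -2.59.

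Pairs of members that lie next to each other on a chromosome had log2 differences of opposite sign. Cdh8 (chr8:99024471-99417666) and Cdh11 (chr8:102632095-102785493) are 3.21 Mb apart with 0 tested genes lying wholly between them. The tested non-coding gene A330008L17Rik, which overlaps Cdh8, reaches into this interval and ends 2899 kb from Cdh11 (-0.70, edgeR adjusted p 0.538). The wild-type log2 differences of the pair were -1.36 and 0.59. Pcdh8 (chr14:79766772-79771312) and Pcdh17 (chr14:84443563-84537565) are 4.67 Mb apart, also with 0 tested genes wholly between them beyond the overlapping Gm9748, with -2.94 and 0.44, of which the latter did not pass. Pcdh10 (chr3:45378398-45434579) and Pcdh18 (chr3:49743291-49757383) are 4.31 Mb apart with 1 tested gene between them, Pabpc4l, which measured 0.27 (edgeR adjusted p 0.407), and had 0.68 and -0.33 themselves. Positions are those of the RefSeq table for GRCm38.p6, and the genes below are named for their position.

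Further neighbours were picked from the nearest tested genes after their values were seen. The non-coding gene 2610316D01Rik lies 0.138 kb from Pcdh10 and differed in the same direction, by 1.00 on the log2 scale (edgeR adjusted p 0.0165). Klhl1, 2212 kb from Pcdh9 (chr14:93013700-93892834), was lower in forebrain by -4.43 (adjusted p 1.46e-06), beside -0.53 for Pcdh9. Drosha, 93.4 kb from Cdh6 (chr15:13028699-13176407), measured 0.14 (adjusted p 0.0838) beside 0.94 for Cdh6. Tnmd, 162 kb from Pcdh19 (chrX:133582860-133689044), measured -0.39 (adjusted p 0.721) beside 2.72 for Pcdh19. On the side of lower coordinates the nearest tested gene to Pcdh7 (chr5:57716145-58133236) was Stim2, 3595 kb away, at 0.39 (adjusted p 0.0128), with the sign opposite to Pcdh7.

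Markers of other cell types were set beside some members, library by library. Mesenchymal markers (10 genes, among them Twist1, Prrx1, Pdgfra and the fibrillar collagens, none at 0 in any group) summed to 2256 and 1808 CPM in wild-type forebrain, 1297 and 1976 CPM in knockout forebrain, 1438 and 2020 CPM in wild-type midbrain, and 1831 and 1978 CPM in knockout midbrain. The lowest sum within forebrain came from hs267-853 knockout replicate 1 and the lowest within midbrain from wild-type replicate 1. Cdh11 was lowest in its tissue in these same libraries, at 115 and 112 CPM, and so was Pcdh7, at 18.1 and 29.0 CPM. In the hs654 knockout pair Pcdh7 went slightly the other way, at 35.8 CPM beside a sum of 1831 CPM and 34.6 CPM beside 1978 CPM. Between the wild-type tissues 3 of the 10 markers were higher in forebrain and 0 lower, with a median log2 difference of 0.32. The part of mesenchyme in the values of Cdh11 and Pcdh7 was not tested.

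Neuronal markers (9 genes, including Tubb3, Dcx and Stmn2, none at 0) were 9 of 9 lower in wild-type forebrain, with a median log2 difference of -0.91. They summed to 1835 and 1604 CPM in wild-type forebrain, 2055 and 1462 CPM in knockout forebrain, 3499 and 3325 CPM in wild-type midbrain, and 3645 and 3748 CPM in knockout midbrain. Cdh8, Pcdh8, Pcdh9 and Pcdh18 were higher in midbrain with them, while Pcdh10, Cdh6, Pcdh19 and Cdh11 were lower there. Within the hs267-853 knockout pair, Pcdh17, Pcdh10, Pcdh8, Cdh8 and Cdh6 were higher in replicate 1, the pool with the larger neuronal sum. Pcdh19 was also higher in that pool (131 against 121 CPM). Pcdh18 (97.1 against 117 CPM), Pcdh9 (14.3 against 14.8 CPM), Pcdh7 (18.1 against 29.2 CPM) and Cdh11 (115 against 178 CPM) were lower there. That pool also had the larger neural progenitor sum (4042 against 3579 CPM) and the smaller mesenchymal sum (1297 against 1976 CPM). In the other pairs Pcdh17, Pcdh10, Pcdh8, Cdh8 and Cdh6 were for the most part likewise higher in the pool with the larger neuronal sum. Lower in it were Pcdh17 in wild-type forebrain (25.2 against 28.8 CPM) and Cdh6 in wild-type midbrain (32.1 against 35.9 CPM). So was Pcdh8 in hs654 knockout midbrain (83.9 against 87.2 CPM). The part of these cell types in the members' values was not tested. Pcdh19 is X-linked, and X-inactivation transcripts summed to between 0.765 and 3216 CPM over the pools. In the hs654 knockout pools with 1987 and 0.765 CPM of these transcripts, Pcdh19 measured 23.6 and 17.7 CPM. Y-linked transcripts (4 genes) summed to 0 and 62.5 CPM in wild-type forebrain, 81.8 and 141 CPM in knockout forebrain, 86.2 and 182 CPM in wild-type midbrain, and 105 and 241 CPM in knockout midbrain. The wild-type forebrain pools were the lowest, and 1 of the 4 genes, Eif2s3y, passed between the wild-type tissues (-2.31, edgeR adjusted p 0.0360). The sex make-up of the pools thus differed, and its part in the values of Pcdh19 was not tested.

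The pools of the hs267-853 knockout lay further apart for the members than those of any other group. This pair also lay furthest apart over the whole table. Its chi-square per degree of freedom was 7.74, beside 3.75 to 5.56 in the other groups. The median size of the log2 gap between its replicates was 0.56 over the 10 members, beside 0.15 over all genes tested, and it exceeded 0.3 for 7 members. In the other 3 groups the members' median gap was 0.11 to 0.17, beside 0.11 to 0.12 over all genes tested. Replicate 1 was above replicate 2 by 0.81 for Pcdh8, 0.69 for Cdh8, 0.68 for Pcdh17, 0.51 for Pcdh10 and 0.39 for Cdh6. It was below by -0.69 for Pcdh7 and -0.62 for Cdh11, and Pcdh19 differed by 0.10.

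**Figure D3:**
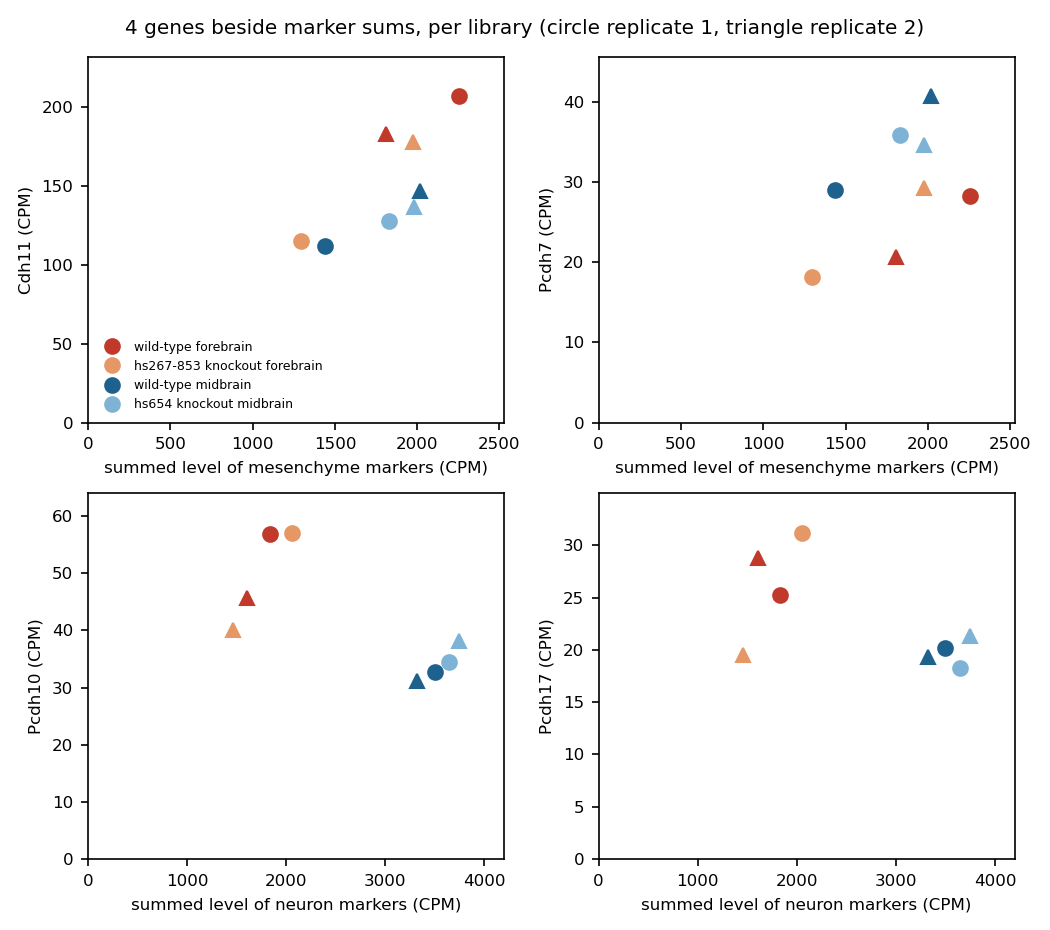
Level of Cdh11 and Pcdh7 against the summed mesenchymal markers, and of Pcdh10 and Pcdh17 against the summed neuronal markers, all in CPM, for the 8 libraries (colours are groups, circles replicate 1, triangles replicate 2). Cdh11 reads 115 and 112 CPM in the libraries with the lowest mesenchymal sums, 1297 and 1438 CPM, and 207 CPM in the library with the highest, 2256 CPM, but 147 CPM at a sum of 2020 and 183 CPM at a sum of 1808. Pcdh7 reads 28.3 CPM at the highest sum, below all 4 midbrain libraries.

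Genes with the pattern most like a member over the 8 libraries were looked up by the root mean square difference of centred log2 CPM, among 10608 genes with a mean of at least 10 CPM. Pcdh19 was nearest to Fzd8, a Wnt receptor (0.108), and Prdm16, a transcriptional regulator (0.166). Pcdh8 was nearest to Pdlim3 (0.150) and A230070E04Rik (0.164). Cdh6 was nearest to Asrgl1 (0.063) and Cdh4, the type I R-cadherin (0.087). Cdh8 was nearest to Nrcam, a neuronal adhesion molecule (0.117), and Jph3 (0.133). Pcdh10 was nearest to Cyfip2, a WAVE complex subunit (0.091), and Jun (0.103). These values describe likeness in 8 libraries that fall mainly into 2 tissues.

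The remaining members matched genes of several kinds. Cdh11 was nearest to Itga4, an integrin (0.064), and Pcolce, which assists collagen processing (0.075), and Pcdh7 to Egflam (0.119) and Itga11, a collagen-binding integrin (0.133). Pcdh18 was nearest to Cep85l (0.031) and Ccdc39 (0.048), Pcdh9 to Zfp28 (0.072) and Pfkfb4 (0.080), and Pcdh17 to Polr2f (0.090) and Nol4 (0.111). Among members, Pcdh10 and Pcdh17 were the closest pair (0.169), followed by Pcdh9 and Pcdh18 (0.181). Pcdh8 and Pcdh19 were the most distant (2.734).

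Genes of the same families and of the machinery that cadherins act through were taken as 7 lists, 42 genes in all. The shares to read their counts against are those over all genes tested, 14.3% higher and 15.3% lower in wild-type forebrain, 29.6% together. Between the wild-type tissues, 0 of 9 tested other type II cadherins were higher in forebrain and 3 were lower, and 6 did not pass, a share called near that of all genes. Their median log2 difference was -0.69, beside 0.00 over all genes tested. The level of Cdh10 was 2.43 ± 0.593 CPM in forebrain against 6.02 ± 0.609 CPM in midbrain (SD, n = 2), and the log2 difference -1.30 (edgeR adjusted p 0.00253), and Cdh22 14.6 ± 1.41 and 23.6 ± 1.83 CPM (-0.69, adjusted p 0.00860). The third was Cdh18, with a mean under 1 CPM, named here after its value was seen. Cdh5, the endothelial VE-cadherin, did not pass (0.19, adjusted p 0.216). Between the knockout tissues 1 was higher and 1 lower, of which Cdh7 was the higher one (0.90, adjusted p 0.00667) and Cdh9, with a mean under 1 CPM and named after its value was seen, the lower one.

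Type I cadherins, the classic adhesion proteins of epithelia and neuroepithelium, were 3 of 4 tested higher in wild-type forebrain and 0 lower. Cdh2 (N-cadherin) stood at 397 ± 19.4 CPM in forebrain against 292 ± 2.57 CPM in midbrain (SD, n = 2), and its log2 difference was 0.44 (edgeR adjusted p 5.01e-05). Cdh4 measured 69.1 ± 2.54 and 33.9 ± 0.118 CPM (1.03, adjusted p 1.41e-05) and Cdh3 (P-cadherin) 12.6 ± 0.453 and 1.22 ± 1.10 CPM (3.44, adjusted p 0.000523). The same number, 3 of 4, was higher between the knockout tissues, with 0.48 for Cdh2, 0.97 for Cdh4 and 1.70 for Cdh3. The Cdh3 pools of hs267-853 knockout forebrain lay far apart, at 3.69 and 12.2 CPM, against 2.50 and 2.29 CPM in hs654 knockout midbrain. Of the 2 other delta protocadherins, Pcdh11x was lower in wild-type forebrain (-1.10, adjusted p 0.0170) and Pcdh1 did not pass (0.00, adjusted p 0.985). None of the 3 other non-clustered protocadherins, Pcdh12, Pcdh15 and Pcdh20, passed (0 of 3).

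Catenins bind the tails of classic cadherins. Of 6 tested, 0 were higher and 2 lower in wild-type forebrain, beside 29.6% of all genes called in either direction, so the count does not set catenins apart. The 2 were Ctnna2, the neuronal alpha-catenin (-0.71, edgeR adjusted p 0.000896), and Ctnnb1, beta-catenin (-0.25, adjusted p 0.00216). Ctnna2 was the 1 catenin that passed between the knockout tissues (-0.65, adjusted p 0.00153). Of 9 WAVE complex genes, 3 were higher and 1 lower in wild-type forebrain, beside 14.3% and 15.3% of all genes, a small list from which no difference from other genes is read. They were Cyfip2 (0.52, adjusted p 0.00200), Brk1 (0.27, adjusted p 0.0228), Cyfip1 (0.26, adjusted p 0.00901) and, lower, Wasf3 (-0.57, adjusted p 0.00111). Nckap1, the subunit that some delta-2 protocadherins bind, did not pass (0.07, edgeR adjusted p 0.544). Between the knockout tissues Cyfip2 and Cyfip1 were higher, and Wasf3 and Wasf1 lower (0.34, 0.23, -0.49 and -0.38).

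Enzymes that act on these proteins moved in both directions between the wild-type tissues. The phosphatase subunit Ppp1ca was higher (0.19, edgeR adjusted p 0.0199). Taok2, a kinase that acts with Pcdh8 (-0.26, adjusted p 0.00558), and the cadherin sheddase Adam10 (-0.22, adjusted p 0.0169) were lower. Between the knockout tissues Ppp1ca and Ppp1cc were higher, by 0.24 and 0.19. In the comparisons of knockout with wild type 0 of the 39 tested genes of the 7 lists passed in either tissue. Over all genes tested, 0% passed for hs654 and 0.013% for hs267-853.

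**Figure D4:**
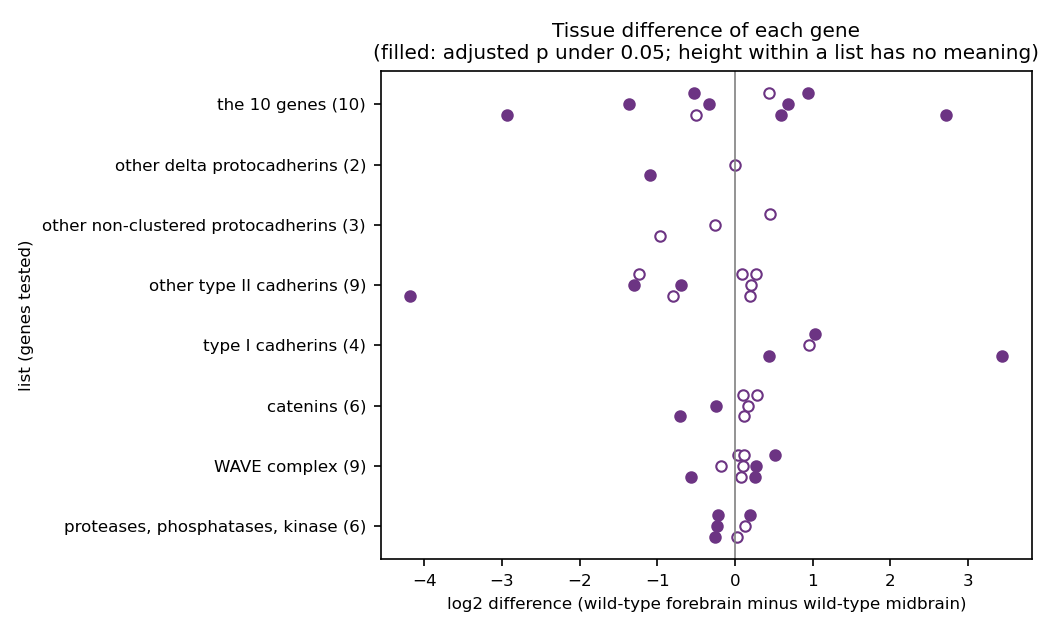
Log2 difference, wild-type forebrain minus wild-type midbrain (horizontal axis), of the 10 genes and of the tested genes of 7 lists; filled points passed an adjusted p of 0.05. The 10 genes spread from -2.94 to 2.72, the 6 catenins from -0.71 to 0.28.

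The hs654 comparison asked whether the loss of this element alters the genes in midbrain. For the members no change was detected: 0 of 10 passed an adjusted p of 0.05 in edgeR, as for 0% of all genes tested, and 0 of 10 had an unadjusted p under 0.05, against 3.96% of all genes tested. Log2 differences, knockout minus wild type, lay between -0.24 and 0.18, with a median size of 0.07 beside 0.10 over all genes tested. DESeq2 also called 0 of 10. The groups did not overlap for 3 of 10 members, against 36.7% of all genes tested: Cdh8 and Pcdh9 were lower and Pcdh10 higher in the knockout. In the same comparison 10 of 10 mesenchymal markers had positive log2 differences (median 0.16) and 9 of 9 erythroid markers negative ones (median -0.46), and 0 of either list passed. The erythroid sum stood apart in wild-type midbrain replicate 1, at 6779 CPM against 3610 CPM in replicate 2 and 3821 and 3364 CPM in the knockout. The part of these cells in the members' values was not tested.

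The size of change that these midbrain pools would leave room for differed by gene. Cdh8 had -0.24 (95% interval -0.61 to 0.12), Pcdh9 -0.21 (-0.56 to 0.14), Pcdh10 0.18 (-0.17 to 0.53) and Pcdh19 0.14 (-0.14 to 0.42). The interval was narrowest for Pcdh18, at -0.03 (-0.24 to 0.17), and widest for Pcdh7, at 0.02 (-0.44 to 0.48). Cdh6 and Pcdh8 both measured -0.07, with intervals of -0.34 to 0.20 and -0.39 to 0.25. Cdh11 measured 0.03 (-0.33 to 0.39) and Pcdh17 0.00 (-0.42 to 0.41).

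The hs267-853 comparison asked the same in forebrain. Again 0 of 10 members passed in edgeR, against 0.013% of all genes tested, and 1 of 10 had an unadjusted p under 0.05, against 4.78%. DESeq2 called 0 of 10. That member was Cdh11, at 147 CPM in the knockout and 195 CPM in the wild type on average, with a log2 difference of -0.41 (95% interval -0.76 to -0.07, unadjusted p 0.0232, adjusted p 0.984). It was the 1 member of 10 whose groups did not overlap, against 31.1% of all genes tested. Most of the difference came from replicate 1 of the knockout. Without replicate 2 the value was -0.76, and without replicate 1 it came to -0.13. Without a filter on low counts the edgeR adjusted p was 2.78e-06, in a fit that called 0.796% of the genes tested, beside 0.013% with the filter.

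The 10 mesenchymal markers all had negative log2 differences in this comparison, with a median of -0.31, and 0 of 10 passed. Their summed level was lowest, at 1297 CPM, in the knockout pool in which Cdh11 was lowest, while 1 of them, Foxd1, was higher in that pool than in the other knockout pool (28.9 and 25.5 CPM). Their part in the Cdh11 value was not tested.

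For the other 9 members the forebrain values lay between -0.09 and 0.27. Pcdh8 was highest, at 0.27 (95% interval -0.15 to 0.70). Without knockout replicate 2 it was 0.61, while without knockout replicate 1 it was -0.20. Pcdh19 had the narrowest interval with Pcdh18, at 0.01 (-0.19 to 0.22) and -0.09 (-0.29 to 0.11). Cdh6 measured -0.02 (-0.26 to 0.22), Pcdh10 -0.08 (-0.40 to 0.24) and Pcdh9 -0.09 (-0.44 to 0.27). Pcdh17 measured -0.08 (-0.47 to 0.30), Cdh8 -0.03 (-0.43 to 0.37) and Pcdh7 -0.06 (-0.53 to 0.41).

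**Figure D5:**
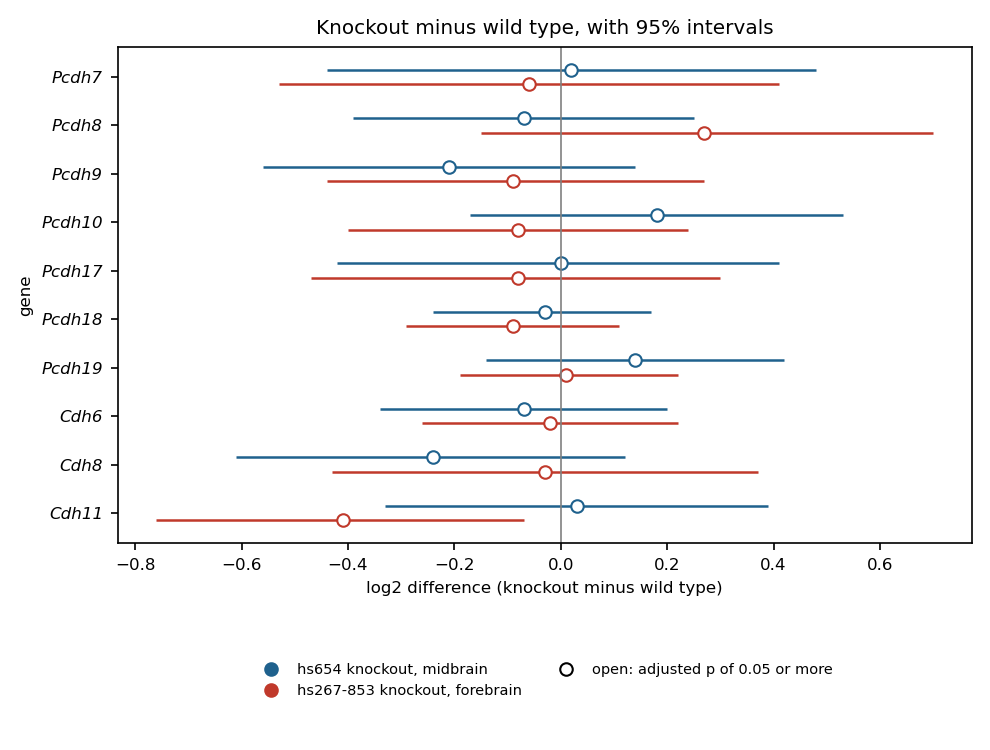
Log2 difference, knockout minus wild type, of each gene (horizontal axis) for hs654 in midbrain and hs267-853 in forebrain, with 95% intervals from edgeR; open points did not pass an adjusted p of 0.05. All 20 points are open, and Cdh11 in forebrain, at -0.41, lies furthest from 0.

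The difference between the knockout effects, midbrain minus forebrain, was tested directly. It equals the wild-type tissue difference minus the knockout tissue difference. It passed for 0 of 10 members in edgeR, against 0.0065% of all genes tested, and 0 of 10 had an unadjusted p under 0.05, against 4.02%; DESeq2 called 0 of 10. Cdh11 had the largest value, 0.44 (95% interval -0.06 to 0.94, adjusted p 0.996), followed by Pcdh8 with -0.35 (-0.88 to 0.19) and Pcdh10 with 0.26 (-0.21 to 0.73). The Cdh11 value passed without a filter on low counts (edgeR adjusted p 0.00278), in a fit that called 0.549% of the genes tested. Without hs267-853 knockout replicate 2 it was 0.79.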

How the data were processed

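The series holds 29 samples, of which the 8 RNA-seq libraries were used. The other 21, from capture Hi-C, were not used here. The authors deposited raw counts per gene symbol, 1 table per library. STAR, HTSeq and DESeq2 and the build mm10 are named in the submitters' processing notes. Versions, annotation and strand setting are not given in the sources used here. Rows naming no gene entered neither library sizes nor tests. Of counts in genes, no feature and ambiguous positions, genes held 40.7% to 44.1%, no feature 55.4% to 58.9% and ambiguous positions 0.431% to 0.488%.

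Counts were tested with edgeR 4.0.16 in R 4.3.3: filterByExpr, TMM (factors 0.978 to 1.01), and a quasi-likelihood fit with a mean per group over all 8 libraries (4 residual and 8.75 prior degrees of freedom). Tests were two-sided, adjusted over 15383 genes, threshold 0.05. Standard errors were taken as the log2 difference over the root of F, and 95% intervals from these. Log2 CPM used a prior count of 2. Alternatives were RLE or upper-quartile scaling, no low-count filter, DESeq2 1.42.0, only the libraries compared, the replicate number as a block, and leaving out each library; where 1 library remained in a group it was assumed to vary like the others. Counts were simulated for hs654 against wild type over 15383 genes. Of genes changed by a log2 of 2, 84.8% were recovered, by 1 77.9% and by 0.58 57.8%, with 12 false among 158 calls. The changes were planted together, in 66, 68 and 64 genes.

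The members and lists were chosen with earlier results of these data known. Named were all 10 members, up to 3 called genes per list and direction whose mean reached 1 CPM, and the 2 genes most like each member. Promoter windows came from RefSeq (GRCm38.p6). Protein sequences and levels per length were not used here, and 1 gene of the list of enzymes is not reported here. The same numbers in different groups were checked for pairing and did not pair the libraries (closing observations).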

Additional observations from a re-analysis of the deposited data

How the results depend on the processing

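Of the 530 values of single members under alternatives, 454 kept their direction and their side of the threshold, 44 changed sign, 22 newly passed and 10 no longer passed; the causes were not tested. Of members called between the wild-type tissues (8), leaving out 1 library gave 5 to 8, the 5 without wild-type forebrain replicate 1. Between the knockout tissues (5) it gave 4 to 8, and 9 came from no low-count filter. For the hs267-853 effect (0) the range was 0 to 2, and for the difference of effects (0) it was 0 to 1, with 1 for each without the filter. Genes called over the whole table ranged, leaving out 1 library, from 2816 to 3510 between wild-type tissues (4548 with all libraries), 2810 to 4267 between knockout tissues (4523), 0 to 8 for hs654 (0), 3 to 209 for hs267-853 (2) and 0 to 64 for the difference (1). Without the filter the last 3 were 22, 161 and 111. Between the wild-type tissues 10 of 10 members passed without the filter, beside 25.1% of the genes tested then. In the fit of only the 4 wild-type libraries 10 of 10 passed as well, beside 31.4%. DESeq2 gave 13 for hs267-853 and 4 for the difference, and fits of only the libraries compared gave 1 for each knockout.

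The replicate number as a block changed 2 calls of members, both between the knockout tissues: Pcdh7 (-0.60, adjusted p 0.0481) and Pcdh10 (0.41, adjusted p 0.0362) passed. The labels give no source for a pairing, and the gaps between replicates 1 and 2 correlated by -0.025 to 0.067 between groups, so the libraries share only a number. Under single alternatives with all libraries, Pcdh17 in the hs654 comparison was 0.01 with RLE scaling, no filter and DESeq2.

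Values that changed sign when 1 library was left out ranged as follows, on the log2 scale. Between the knockout tissues they were -0.01 to 0.66 for Pcdh17 and -0.19 to 0.43 for Cdh11. For hs654 they were -0.21 to 0.28 for Pcdh7, -0.14 to 0.00 for Pcdh8, -0.11 to 0.12 for Pcdh17, -0.14 to 0.07 for Pcdh18, -0.09 to 0.32 for Pcdh19, -0.15 to 0.01 for Cdh6 and -0.16 to 0.24 for Cdh11. For hs267-853 they were -0.44 to 0.25 for Pcdh7, -0.20 to 0.61 for Pcdh8, -0.32 to 0.21 for Pcdh9, -0.36 to 0.15 for Pcdh10, -0.47 to 0.21 for Pcdh17, -0.23 to 0.04 for Pcdh18, -0.06 to 0.10 for Pcdh19, -0.23 to 0.16 for Cdh6 and -0.43 to 0.26 for Cdh8. For the difference of effects they were -0.23 to 0.46 for Pcdh7, -0.68 to 0.13 for Pcdh8, -0.42 to 0.11 for Pcdh9, -0.22 to 0.46 for Pcdh17, -0.07 to 0.20 for Pcdh18, -0.09 to 0.30 for Pcdh19, -0.23 to 0.16 for Cdh6 and -0.51 to 0.19 for Cdh8. In simulated counts 57.8% of changes of 0.58 on the log2 scale were recovered, so changes of this size could be missed. Many genes were changed together there, which eases the adjusted threshold. With 0 genes called for hs654, a change in a single member would meet a stricter threshold. The simulated share therefore does not say how often such a change would be found. A level per gene length was not run.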
